A study of Mus musculus with 4 samples.

Results

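The BH3-only genes encode the proteins that start mitochondrial apoptosis, and their messenger RNAs were followed in 32Dclone3 cells with and without overexpression of miR-125b. The 9 genes were taken by name from a fixed list (Bcl2l11, Bbc3, Bid, Pmaip1, Bmf, Bad, Bik, Bnip3 and Bnip3l), 1 row per gene, out of 21506 genes in the tables. 32Dclone3 is a mouse myeloid line kept in serum with interleukin-3 from WEHI-conditioned medium. The control group was stably infected with the XZ virus and the other group with XZ-miR-125b, with 2 libraries in each and a different virus supernatant behind each infection. All 4 libraries come from the same line, so that the replicates are separate infections and not separate animals. Total RNA was enriched for poly(A) and sequenced, and the values are RPKM, reads scaled by exon length in kilobases and by library size.

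BCL2 family proteins decide whether the outer mitochondrial membrane stays intact. Guardians such as MCL1 and BCL2 hold the pore formers BAX and BAK1 in check, and BH3-only proteins bind the guardians or the pore formers through a short helix, the BH3 domain. Growth factor loss, DNA damage, death receptors and hypoxia each raise or activate different BH3-only proteins, and cytokine withdrawal in interleukin-3-dependent cells is a classical setting of BIM (Bcl2l11) and PUMA (Bbc3). BNIP3 and NIX (Bnip3l) have weaker, atypical BH3 domains and are best known as receptors that bring mitochondria to autophagosomes.

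A miRNA represses messenger RNAs mainly through pairing of its seed, bases 2 to 8, with the 3′ UTR. The mature sequence from RefSeq (GRCm38.p6) is shown first with its seed in capitals, followed by the sites of the members that carry a match to at least 7 bases in the 3′ UTR, with the matching bases in capitals. The sites are given 5′ to 3′ from GENCODE M21 transcripts (GRCm38), and are shown because such matches are where the miRNA can pair with a member.
miR-125b-5p: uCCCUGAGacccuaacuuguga
Bmf 8mer, the first: gcccaccgcatgggCTCAGGGAttcttact
Bmf 8mer, the second: aacttccggaagacCTCAGGGAgggtcgga
Bmf 8mer, the third: tccccgctgcagtgCTCAGGGAgggaacga
Bmf 7mer-m8: ccacaatcatttttCTCAGGGtctatacca
Bbc3 7mer-A1: aggaagatggggagTCAGGGAggggggaag

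Bmf, which encodes a BH3-only protein that is held at the actin-based myosin V motor, was the member with the most seed matches. Its 3′ UTR of 3801 bases held 3 8mers (CTCAGGGA), 1 7mer-m8 (CTCAGGG) and 1 6mer (TCAGGG). The 8mers lie on the minus strand of chromosome 2 at chr2:118532085-118532092, chr2:118532044-118532051 and chr2:118531428-118531435 (GRCm38). The 7mer-m8 lies at chr2:118530888-118530894. An 8mer was the best site in 5.13% of the 19661 genes with an annotated 3′ UTR. Bbc3 held a single 7mer-A1 (TCAGGGA) at chr7:16318018-16318024, counted from base 784 of a 3′ UTR of 971 bases, a class that was the best site in 6.92% of genes. Bid and Bnip3l held 1 6mer each, and the longest 3′ UTRs of Bcl2l11, Bad, Bik, Bnip3 and Pmaip1 held no match. No such match in a window says only that these letters are not in it.

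**Figure D1:**
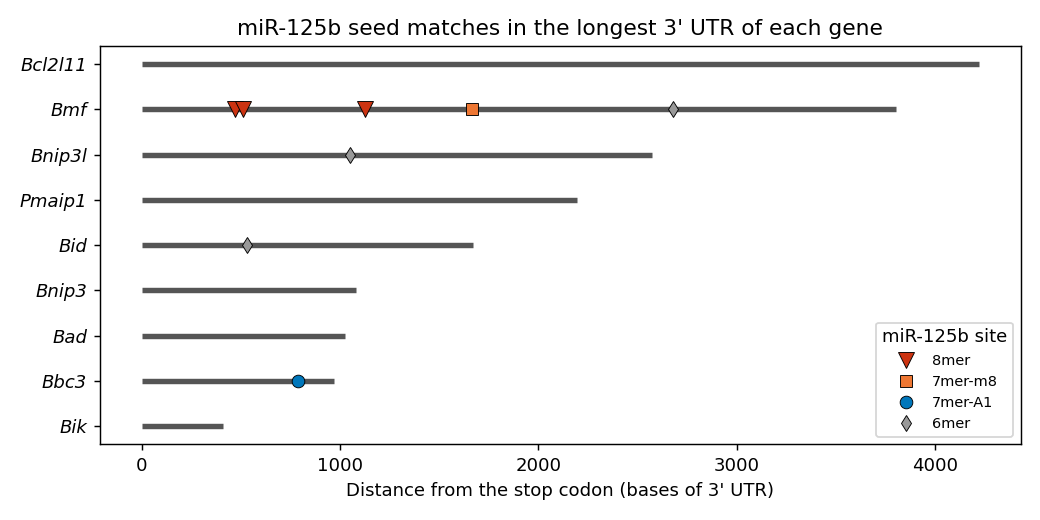
Seed matches of miR-125b along the longest annotated 3′ UTR of each BH3-only gene. The horizontal axis is the distance from the stop codon in bases, grey bars are the 3′ UTRs and symbols mark the 4 site classes. Bmf carries 5 matches, Bbc3, Bid and Bnip3l carry 1 each, and the other 5 genes carry none.

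In coding sequence, the 7-base match CTCAGGG was present once in Bcl2l11, as a 7mer-m8, and once in Bik, as an 8mer. The share of all genes with such a coding match was not counted. The Bcl2l11 match starts at base 167 of 591 coding bases, at chr2:128128799-128128805 (plus strand), and is shown because Bcl2l11 has the longest 3′ UTR of the members, at 4218 bases, and no match in it.
Bcl2l11 coding match: cccccacggcagccCTCAGGGcccgctggc

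The libraries held between 10376284 and 12620907 reads summed over all rows, and 1 read in a transcript of 1 kb was worth between 0.0792 and 0.0964 RPKM. A principal component analysis set control replicate 2 apart (57.9% of the variance on the leading axis). GC-rich transcripts had the higher values in it relative to control replicate 1 (Spearman's rho 0.477 across 10125 genes, which are not independent replicates). The differences of the members are therefore also given without that library. Of the myeloid markers, 10 of 11 reached 1 RPKM in at least 2 libraries, among them Mpo, Elane and the interleukin-3 receptor chains Il3ra, Csf2rb and Csf2rb2, while Kit held almost no reads. Their sum was 944.3 and 1747 RPKM in the controls and 1496 and 1082 RPKM in miR-125b cells. Csf2rb2, a receptor chain for interleukin-3, was at 35.3 and 29.3 RPKM in the controls and at 13.4 and 22.7 RPKM in miR-125b cells. Csf2rb was at 69.3 and 59.9 RPKM in the controls and at 33.8 and 50.1 RPKM in miR-125b cells. Il3ra overlapped, at 12.8 and 27.9 RPKM in the controls and at 12.3 and 14.2 RPKM in miR-125b cells. Mpo and Elane were higher with miR-125b, Mpo at 39.1 and 54.2 RPKM in the controls and at 273.0 and 105.3 RPKM. Prtn3, Ctsg, Cebpa and Ptprc of the same list overlapped between the groups. Of the 10 markers at that level, 7 had a log2 difference below 0 and 3 above (median -0.20). Over all tested genes, 47.2% lay below 0. The part of the receptor chains in the differences of the BH3-only genes was not tested. None of 8 lymphoid markers reached that level, and Ms4a1 and Rag1 were at 0. The summed lymphoid level ran from 0.176 to 0.421 RPKM in the controls and stood at 0.175 RPKM in both miR-125b libraries. Of 6 erythroid markers 3 reached it, with sums of 24.0 and 30.4 RPKM in the controls and 13.3 and 25.3 RPKM in miR-125b cells, and Hbb-b1 was at 0. Of 8 stromal markers 2 did (Pdgfrb and Thy1), with sums of 5.22 and 9.50 RPKM in the controls and 9.94 and 4.93 RPKM in miR-125b cells, and Col1a2, Col3a1 and Dcn were at 0. In such bulk RNA, fewer cells of a type and less RNA per cell cannot be told apart.

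Of the 9 genes, 6 were expressed at 1 RPKM or more in at least 2 libraries and were tested, and Bmf, Bik and Pmaip1 were not. With miR-125b, Bbc3 and Bcl2l11 were lower and Bnip3 and Bnip3l higher in both libraries than in either control, while Bid and Bad overlapped between the groups. None of the 6 passed limma's test over all genes (adjusted p from 0.4999 to 0.896, Benjamini-Hochberg over 10310 genes). The share called over all genes was 0%. At an unadjusted p under 0.05, limma placed 1 of the 6 members (Bnip3, higher), where 9.38% of all tested genes lay and 4.17% lay there as higher. Which members lay there changed with the libraries and settings. Fits with a library left out keep only 1 library in a group, so their effect sizes alone are given by gene below. By limma-voom Bbc3 and Bnip3 lay there, with 999 of 10310 genes in all. With the replicate block it was again Bbc3 and Bnip3, with 1085 of 10310 genes in all. A correction for GC content left none of the members there, with 1160 of 10310 genes in all. With no filter on low values it was Bik alone, with 1190 of 14601 genes in all. Bik had 2 and 1 reads in control and 0 reads in both miR-125b libraries, too few to tell a difference. The groups did not overlap in 4 of the 6, against 42.8% of all tested genes. Of these, 2 were lower and 2 higher with miR-125b, against 20.4% and 22.3% of all tested genes. A permutation of 2 against 2 libraries cannot give an exact 2-sided p below 0.333.

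By level per kilobase in the control cells, Bid came first at 34.2 ± 0.755 RPKM (SD, n = 2 libraries, as for all means here). It was followed by Bbc3 at 29.2 ± 19.5, Bad at 27.0 ± 1.96 and Bnip3l at 21.3 ± 2.17 RPKM. Bcl2l11 at 7.15 ± 1.26 and Bnip3 at 6.40 ± 1.59 RPKM formed the next level, and Bmf at 1.08 ± 0.682 RPKM lay below them. The place of Bbc3 in this order was not settled, since 1 of its control libraries lay below Bnip3l and the other above Bid. The ranges of Bcl2l11 and Bnip3 overlapped too. In the miR-125b cells Bid (32.5 ± 2.14 RPKM) and Bnip3l (29.9 ± 8.68) came first with overlapping ranges, Bad followed at 21.6 ± 8.01, Bbc3 at 12.6 ± 2.44 and Bnip3 at 10.3 ± 1.39. There the ranges of Bad and Bnip3l overlapped, as did those of Bbc3 and Bnip3, so these neighbours were not separated. The ranges of Bad and Bbc3 did not overlap, nor did those of Bbc3 and Bcl2l11 (4.69 ± 1.78 RPKM).

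**Figure D2:**
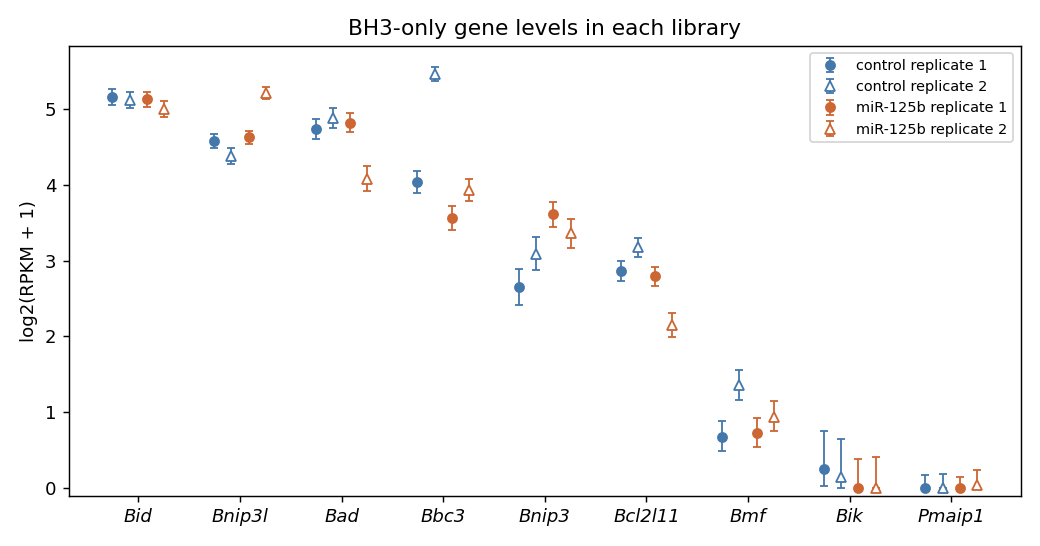
Level of each BH3-only gene in each library as log2(RPKM + 1), ordered by the mean of the 4 libraries. Points are libraries and bars are 95% exact Poisson intervals, which cover counting error only. Bbc3 in control replicate 2 lies far above the other 3 libraries, Bnip3l in miR-125b replicate 2 lies above its others, and Bik and Pmaip1 lie at the floor.

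Bcl2l11 encodes BIM, which binds every guardian and can activate BAX and BAK1 directly. It was at 6.26 and 8.04 RPKM in control replicates 1 and 2 and at 5.95 and 3.43 RPKM in miR-125b replicates 1 and 2. Both miR-125b libraries lay below both controls, but replicate 1 of each group differed by only 0.064 on the log2(RPKM + 1) scale, within the counting intervals (5.62 to 6.95 and 5.36 to 6.58 RPKM). The fitted log2 difference was -0.55 ± 0.26 (SE; limma adjusted p = 0.559). It was -0.39 when control replicate 2 was left out, -0.22 when miR-125b replicate 2, the lowest library, was left out, and -0.87 when miR-125b replicate 1 was.

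The tables hold 3 rows for Bcl2l11 on chromosome 2 (127951774 to 127988283 in mm9, plus strand). They are nested transcripts that correspond to the long, middle and short BIM proteins. The longest row spans 5037 exon bases and the shortest 4779, so the counts of 354, 420, 378 and 203 reads of the longest row are almost all shared. The 90 bases that the middle and long forms add to the short one held 12 and 16 reads in control and 14 and 5 reads with miR-125b. The 168 bases found only in the long form held 7 and 5 reads in control and 6 and 5 reads with miR-125b. Per kilobase this was 3.71, 2.87, 2.83 and 2.54 RPKM for the long-only segment, in the order of the libraries just given, and 11.9, 17.1, 12.3 and 4.73 RPKM for the segment of 90 bases. The 95% counting intervals of the long-only segment, from 1.49 to 7.65 RPKM in control replicate 1 and from 0.824 to 5.92 RPKM in miR-125b replicate 2, overlap widely. Those of the 90-base segment, from 9.79 to 27.8 RPKM in control replicate 2 and from 1.54 to 11.05 RPKM in miR-125b replicate 2, overlap narrowly. The shares of the forms were not compared.

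Bbc3 encodes PUMA, a p53-induced protein that binds all guardians and is also raised by cytokine loss. Its transcript lies on chromosome 7 (16894932 to 16903682 in mm9, plus strand, 4 exons). It was at 15.5 RPKM in control replicate 1, 43.0 RPKM in control replicate 2, 10.8 RPKM in miR-125b replicate 1 and 14.3 RPKM in miR-125b replicate 2. The controls thus differed 2.78-fold between themselves, while control replicate 1 (counting interval 13.9 to 17.2 RPKM) and miR-125b replicate 2 (12.8 to 15.9 RPKM) could not be separated. The fitted log2 difference was -1.001 ± 0.44 (SE; limma adjusted p = 0.534), the largest among the 6 tested members and lower in 4 of 4 pairings of libraries. It was -0.29 without control replicate 2 and -1.71 without control replicate 1.

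The Bbc3 transcript has a GC content of 65.2%, above that of 99.7% of tested genes. Between control replicates 2 and 1 Bbc3 differed by 1.42 on the log2(RPKM + 1) scale. Over the 78 tested genes within 2 percentage points of its GC content, the median of that difference was 0.507 and the 95th percentile 1.23, so Bbc3 lay beyond most genes of like composition. After a correction for transcript GC content, chosen after the data had been seen, the difference between the groups was -0.75 ± 0.31 (SE; limma adjusted p = 0.452). The part of GC content in the Bbc3 difference was not tested further.

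**Figure D3:**
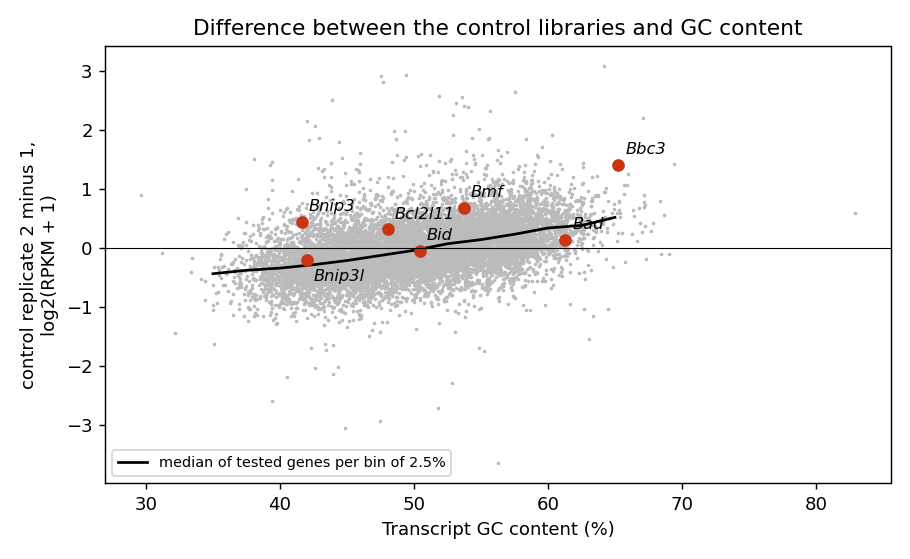
Difference between the control libraries (replicate 2 minus replicate 1, log2(RPKM + 1)) against transcript GC content in percent. Grey points are tested genes, the black line is their median per bin of GC content, and red points are the 6 tested BH3-only genes and Bmf. Bbc3, at 65.2% GC, and Bnip3, at 41.6% GC, lie well above the line, while Bid lies close to it.

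The 5 tested genes whose profile over the 4 libraries was nearest to that of Bbc3 (Euclidean distance of centred log2(RPKM + 1)) were Grcc10 at 0.157, Scarna9 at 0.173, Ltb4r2 at 0.186, 5033414D02Rik at 0.188 and Uba7 at 0.268. All of these also peaked in control replicate 2, Grcc10 for instance at 48.5 and 134.3 RPKM in the controls and 35.5 and 51.9 RPKM in miR-125b cells. With 4 libraries such likeness is a description only. Among the other BH3-only genes, the one nearest to Bbc3 was Bmf, at a distance of 0.975, and the farthest was Bnip3l at 1.85.

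Bmf itself was at 0.596 and 1.56 RPKM in the controls and at 0.650 and 0.920 RPKM in miR-125b cells, from 31, 75, 38 and 50 reads. Control replicate 1 was the lowest library and control replicate 2 the highest, so that both miR-125b libraries lay between the controls. Only 1 library reached 1 RPKM, and Bmf therefore did not enter the test. In a fit without the filter its log2 difference was -0.18 ± 0.26 (SE; limma adjusted p = 0.825). Against control replicate 1 alone the miR-125b libraries were higher by 0.048 and 0.27, and against control replicate 2 alone they differed by -0.63 and -0.42. The member with 3 8mers for miR-125b was thus measured with few reads, and its direction turned with the control library.

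Bid encodes a protein that caspase-8 or granzyme B cuts into an active fragment, linking death receptors to mitochondria. It was at 34.8 and 33.7 RPKM in the controls and at 34.0 and 31.0 RPKM in miR-125b cells, the narrowest spread among the 6 tested members on the log2(RPKM + 1) scale. Its log2 difference was -0.075 ± 0.18 (SE; limma adjusted p = 0.896), and without any single library it ran from -0.14 to -0.0097, with -0.097 when control replicate 2 was left out.

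Bad encodes a sensor that survival kinases hold inactive by phosphorylation. It was at 25.6 and 28.4 RPKM in the controls and at 27.2 and 15.9 RPKM in miR-125b cells. Only miR-125b replicate 2 was low, and replicate 1 lay between the controls. The log2 difference of -0.36 ± 0.27 (SE; limma adjusted p = 0.682) became 0.012 when miR-125b replicate 2 was left out, -0.73 when miR-125b replicate 1 was, and -0.29 when control replicate 2 was. The exons of Bad share 517 bases with Gpr137 on the opposite strand, and counting by strand is not stated, so reads of the pair may be mixed. Gpr137 was at 14.7 and 20.3 RPKM in the controls and at 16.6 and 9.84 RPKM in miR-125b cells, also lowest in miR-125b replicate 2.

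Bik and Pmaip1 were at or near the limit of detection. Bik, a BH3-only gene of the endoplasmic reticulum, had 2 and 1 reads in control and 0 reads in both miR-125b libraries. By the 95% counting intervals a count of 0 allows up to 0.310 and 0.333 RPKM there, so no difference was detectable. Pmaip1, which encodes the p53 target NOXA, had 0 reads in 3 libraries and 1 read in miR-125b replicate 2. By the same intervals its counts of 0 allow up to between 0.110 and 0.134 RPKM. The BH3-only gene Hrk, which is outside the 9, had no reads in any library.

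Bnip3 and Bnip3l, the mitophagy receptors, were the members that were higher with miR-125b. Bnip3 (chromosome 7, 146082519 to 146101189 in mm9, minus strand) was at 5.27 and 7.52 RPKM in the controls and at 11.2 and 9.27 RPKM in miR-125b cells. The ratio of the means was 1.60, and the miR-125b libraries were higher in 4 of 4 pairings. The log2 difference was 0.62 ± 0.22 (SE), with an unadjusted limma p of 0.028 and an adjusted p of 0.4999. Without control replicate 2 it was 0.84, and without control replicate 1, where the remaining control is nearer to the miR-125b libraries, 0.40. After the GC correction it was 0.47 ± 0.27 (SE; limma adjusted p = 0.548). Between the controls Bnip3 differed by 0.44 (replicate 2 minus replicate 1), above the median of genes near its GC content of 41.6%, which lay below 0.

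Bnip3l (chromosome 14, 67604077 to 67627714 in mm9, minus strand) was at 22.8 and 19.7 RPKM in the controls and at 23.7 and 36.0 RPKM in miR-125b cells. Replicate 1 of miR-125b exceeded control replicate 1 by only 0.054 on the log2(RPKM + 1) scale, and their counting intervals overlapped (22.2 to 25.3 and 21.3 to 24.4 RPKM). The higher mean rested on replicate 2. The log2 difference of 0.44 ± 0.24 (SE; limma adjusted p = 0.595) was 0.15 when miR-125b replicate 2 was left out and 0.74 when miR-125b replicate 1 was. It was 0.34 without control replicate 2.

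**Figure D4:**
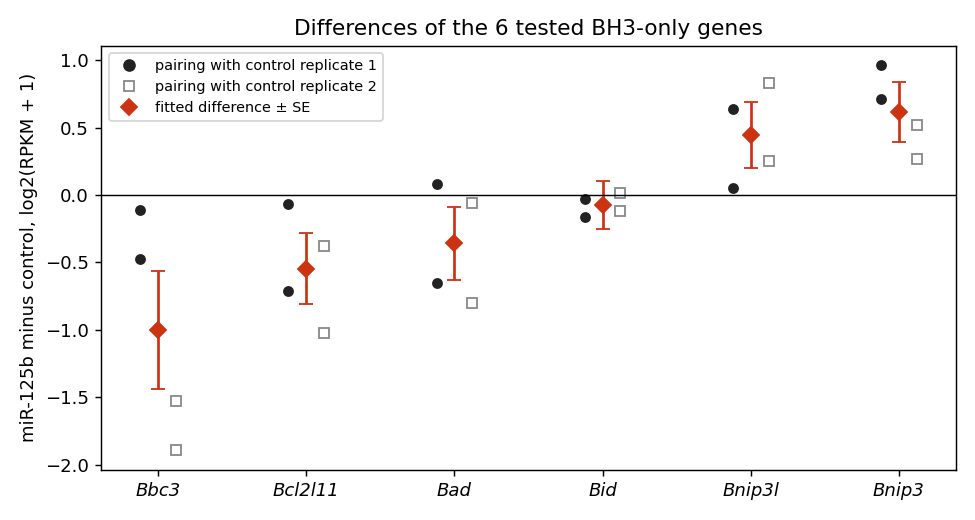
Difference between miR-125b and control cells on the log2(RPKM + 1) scale for the 6 tested BH3-only genes. Circles are pairings of a miR-125b library with control replicate 1, squares are pairings with control replicate 2, and diamonds with bars are the fitted difference and its SE. All 4 pairings lie below 0 for Bbc3 and Bcl2l11 and above 0 for Bnip3 and Bnip3l, and the squares of Bbc3 lie far below its circles.

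Over the 6 tested members the median log2 difference was -0.22, against 0.024 over all tested genes, with 4 members below 0, where 47.2% of all tested genes lay, and 2 above. Leaving out miR-125b replicate 2 gave a median of 0.0013 and leaving out miR-125b replicate 1 gave -0.43, so its sign rested on 1 library. The summed level of the 9 genes was 111.0 and 142.0 RPKM in the controls and 113.6 and 110.8 RPKM in miR-125b cells. Without Bbc3 it was 95.5 and 99.1 RPKM in the controls and 102.8 and 96.5 RPKM in miR-125b cells, and these ranges overlap. The make-up of the sum differed more. Bnip3 and Bnip3l together made up 25.3% and 19.2% of it in control and 30.8% and 40.8% with miR-125b. Bbc3 made up 13.9% and 30.3% in control and 9.54% and 12.9% with miR-125b. These shares are parts of 1 total and are not separate results. Bnip3 and Bnip3l together were at 28.1 and 27.3 RPKM in the controls and at 35.0 and 45.3 RPKM in miR-125b cells.

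Hypoxia-inducible factor HIF-1 is a known activator of Bnip3. The promoter of Bnip3 (RefSeq, GRCm38.p6, chr7:138909457-138909756, minus strand, from 250 bases before to 50 bases after the start) is shown because Bnip3 is the member with the smallest p and a known HIF-1 target. Capitals mark ACGTG and GCGTG, the core of the hypoxia response element, on either strand.
Bnip3 promoter: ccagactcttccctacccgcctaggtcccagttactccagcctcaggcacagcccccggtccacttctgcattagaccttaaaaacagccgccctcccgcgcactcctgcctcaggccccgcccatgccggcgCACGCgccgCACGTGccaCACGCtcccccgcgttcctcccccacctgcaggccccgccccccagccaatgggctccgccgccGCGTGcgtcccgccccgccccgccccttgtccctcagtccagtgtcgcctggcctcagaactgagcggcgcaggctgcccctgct
This window held ACGTG 2 times, both within a single CACGTG that reads the same on each strand, and GCGTG 3 times. At least 1 of these cores was present in 43.8% of the 32851 promoters of that length in the table, and a match is a description, not a bound site. Of the tested members below 0, Bbc3, Bad and Bcl2l11 held these cores as well. The Bid window held neither core, nor did another Bcl2l11 window. A Bbc3 window (chr7:16310181-16310480) held ACGTG 2 times and GCGTG once, another Bbc3 window held GCGTG 4 times, and Bad and Bcl2l11 each had a window with 3 GCGTG.

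Of 24 listed HIF-1 response genes, 21 were tested and 19 had a log2 difference above 0, with a median of 0.30 against 0.024 over all tested genes. At an unadjusted limma p under 0.05, 6 were higher and 0 lower, against 4.17% and 5.21% of all tested genes, and none passed the adjustment. Ero1l, an oxidase of the endoplasmic reticulum, was at 54.7 and 59.7 RPKM in the controls and at 112.3 and 132.7 RPKM in miR-125b cells (limma adjusted p = 0.330). Egln3, a prolyl hydroxylase that marks HIF proteins for degradation, was at 74.4 and 84.2 RPKM in the controls and at 139.3 and 140.7 RPKM in miR-125b cells. Ankrd37 was at 1.18 and 2.88 RPKM in the controls and at 4.21 and 6.32 RPKM in miR-125b cells. The count of 6 was 11 when control replicate 2 was left out, 5 when control replicate 1 was, 4 when miR-125b replicate 1 was and 2 when miR-125b replicate 2 was. The share of higher genes over all tested genes also moved, to 6.04%, 15.5%, 2.41% and 0.961% in the same order. When control replicate 1 was left out, 13 of the 21 lay above 0, with a median of 0.18. The part of HIF-1 in the Bnip3 difference was not tested.

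Of 21 listed mitophagy and LC3 genes other than the receptors, 19 were measured and 16 tested, with a median of 0.020. That median was -0.12 when control replicate 1 was left out, with 5 lower genes where 14% of all tested genes were lower, and -0.042 with the GC correction. At an unadjusted limma p under 0.05 1 was lower and 0 were higher, against 5.21% and 4.17% of all tested genes. The lower one was Atg12, a ubiquitin-like autophagy protein gene, at 36.2 and 39.6 RPKM in the controls and 28.0 and 23.9 RPKM in miR-125b cells. Gabarapl1, of the family that BNIP3 and NIX bind on autophagosomes, was at 67.0 and 87.9 RPKM in the controls and at 59.9 and 60.6 RPKM in miR-125b cells, and Optn, a mitophagy adaptor gene, at 12.8 and 13.9 RPKM in the controls and at 14.02 and 18.4 RPKM in miR-125b cells.

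The partners of the BH3-only proteins, the multidomain BCL2 family, had a median of -0.24 over 8 tested of 12 genes. Below 0 lay 7 of the 8, and 47.2% of all tested genes. At an unadjusted limma p under 0.05, 2 were lower and 0 higher, against 5.21% and 4.17% of all tested genes, and none passed the adjustment. With the GC correction 1 was lower, against 6.37% of all tested genes, and with the replicate block 1, against 5.99%. With no filter on low values 3 of 11 were lower and 1 higher, against 4.06% and 4.09% of all genes in that fit. The median ran from -0.36 to -0.18 over the libraries left out. The count of lower genes at that p was not stable to leaving out either miR-125b library. Such a fit keeps 1 library in the group, so its count is not given. The 2 lower ones in the main fit were Mcl1 and Bak1. Mcl1, a guardian NOXA and BIM bind, was at 220.2 and 203.6 RPKM in the controls and at 150.5 and 140.4 RPKM in miR-125b cells. The pore former Bak1 was at 69.2 and 67.2 RPKM in the controls and at 53.8 and 42.9 RPKM in miR-125b cells. The third by p was the pore former Bax, at 192.3 and 245.8 RPKM in the controls and at 159.5 and 157.3 RPKM in miR-125b cells. Per kilobase, the summed level of this family was 628.8 and 678.6 RPKM in the controls and 504.4 and 491.2 RPKM in miR-125b cells, against the 110.8 to 142.0 RPKM of the 9 BH3-only genes.

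The other BH3-motif genes had a median of 0.27 over 7 tested of 10, with 0 on either side at an unadjusted limma p under 0.05. The median turned to -0.032 when control replicate 2 was left out, and 2 were higher when control replicate 1 was, where 15.5% of all tested genes were. The smallest p was that of Bcl2l14, at 3.65 and 3.69 RPKM in the controls and at 5.25 and 5.22 RPKM in miR-125b cells. It was followed by Bnip1, at 10.4 and 12.1 RPKM in the controls and 13.8 and 15.3 RPKM in miR-125b cells, and Huwe1, the ubiquitin ligase that degrades MCL1, at 114.6 and 98.2 RPKM in the controls and 127.9 and 128.1 RPKM in miR-125b cells.

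Transcription factors and p53 regulators that act on BH3-only genes had a median of -0.095 over 12 tested of 16, with 0 on either side at an unadjusted limma p under 0.05. It turned to 0.023 when control replicate 2 was left out, and 3 were lower and 1 higher when control replicate 1 was, where 14% and 15.5% of all tested genes were. Gata1, a lineage factor of red cells, mast cells and eosinophils that is also in the erythroid list, was at 16.1 and 20.7 RPKM in the controls and at 6.36 and 15.1 RPKM in miR-125b cells. Mdm2, the p53 ubiquitin ligase and itself a p53 target, was at 80.6 and 88.7 RPKM in the controls and at 71.6 and 62.5 RPKM in miR-125b cells. Hdac1 was at 1.45 and 4.21 RPKM in the controls and at 1.41 and 1.34 RPKM in miR-125b cells, high in control replicate 2 alone.

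Kinases, proteases and adaptors that act on BH3-only proteins had a median of 0.050 over 26 tested genes. At an unadjusted limma p under 0.05, 2 were lower and 0 higher, against 5.21% and 4.17% of all tested genes. The higher count was 4 when control replicate 1 was left out and 3 when control replicate 2 was, against 15.5% and 6.04% of all tested genes. At an adjusted limma p under 0.05, 2 of the list were called when miR-125b replicate 1 was left out and 1 when miR-125b replicate 2 was, where 108 of 10200 and 24 of 10195 genes were called in all. Gzmb, whose product granzyme B cuts BID, was at 206.5 and 109.2 RPKM in the controls and at 38.8 and 23.5 RPKM in miR-125b cells (limma adjusted p = 0.249). Rps6ka1, a kinase that phosphorylates BAD, was at 24.4 and 30.1 RPKM in the controls and at 17.3 and 13.4 RPKM in miR-125b cells. Btrc, the third by p and part of a ubiquitin ligase, was at 3.84 and 4.62 RPKM in the controls and at 6.15 and 5.62 RPKM in miR-125b cells.

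Downstream of the mitochondria, the apoptosome, caspases and mitochondrial effectors had a median of 0.11 over 18 tested of 19 genes. At an unadjusted limma p under 0.05, 2 were lower and 1 higher, against 5.21% and 4.17% of all tested genes. The median turned to -0.066 when control replicate 2 was left out, and 5 were higher when control replicate 1 was, where 15.5% of all tested genes were. Dffa, the inhibitor and chaperone of the apoptotic DNase, was at 12.0 and 11.5 RPKM in the controls and at 6.33 and 5.77 RPKM in miR-125b cells. The executioner caspase gene Casp6 was at 27.2 and 28.2 RPKM in the controls and at 22.3 and 16.2 RPKM in miR-125b cells. Vdac1, a channel of the outer mitochondrial membrane, was at 100.8 and 72.6 RPKM in the controls and at 129.0 and 126.5 RPKM in miR-125b cells.

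**Figure D5:**
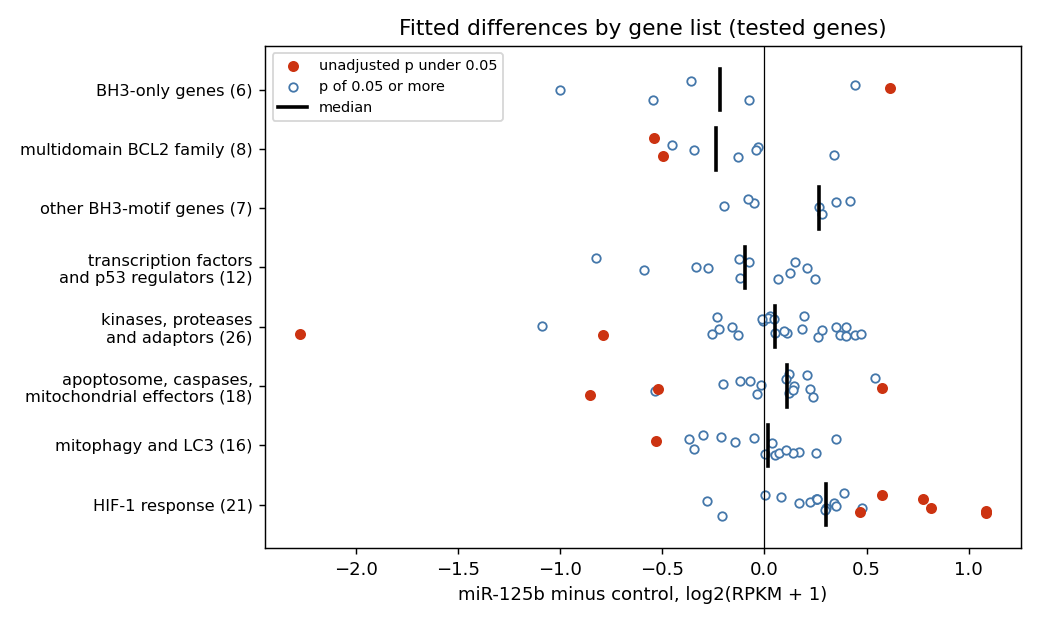
Fitted difference between miR-125b and control cells (log2(RPKM + 1)) for the tested genes of each list, with the number of genes in parentheses. Filled points have an unadjusted limma p under 0.05, open points do not, and black bars are medians. The BH3-only genes spread to both sides of 0, and 19 of the 21 HIF-1 response genes lie above 0 (13 when control replicate 1 is left out).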

How the data were processed

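RNA sequencing was measured in 2 control and 2 miR-125b libraries, grouped by their titles. The authors deposited 1 table per library with 26982 RefSeq transcript rows and RPKM values, and the submitters' processing notes name mm9. For the aligner, the counter and reads with several matches, nothing is stated in these sources. Whole reads were recovered from RPKM and exon length in 100.0% of rows (tolerance 0.001 reads). The longest row per gene was kept (21506 genes). The members, lists and tests were chosen with earlier results of these data known.

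The main test was limma (3.58.1, R 4.3.3) with a trended prior on log2(RPKM + 1), group as the only term, over 10310 genes with at least 1 RPKM in at least 2 libraries, with Benjamini-Hochberg adjustment at 0.05. It was also run on simulated counts without GC effects or a library set apart, so that run does not test it under the conditions of these data. All 9 members are named, as are up to 3 genes per list with the smallest p. Counting intervals are exact Poisson at 95%, and cover counting error only. With 2 libraries a group, limma's p-values set each group difference against the spread between these infections. That spread is moderated by the spread of all tested genes (2 residual and 4.63 prior degrees of freedom). Sites were searched in the longest 3′ UTR per gene of GENCODE M21 (GRCm38), whose coordinates are given for sites only and were not mixed with those of the tables. All 9 members were found there, and Bnip3l, Bik and Pmaip1 are not in the promoter table used. Spi1, Atg13 and Atg14 were not matched by symbol. Alternatives covered pseudocount, filter, scaling, limma-voom on the recovered reads, the prior, a replicate block, the shortest row, GC content and each library left out.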

Additional observations from a re-analysis of the deposited data

How the results depend on the processing

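With 2 libraries a group, differences below the spread between infections could not be seen, and Bmf, Bik and Pmaip1 were limited by few reads. No gene was called over all genes at an adjusted p under 0.05 (limma; 967 at an unadjusted p under 0.05). With the replicate block the count was 12, none of them a member and 1 of them in the list of kinases, proteases and adaptors. With single libraries left out it ran from 0 to 108, again with no member. Where a group kept 1 library, that library is assumed to vary like the others. By limma-voom 0 genes were called, with 999 at an unadjusted p under 0.05. The count of 967 was 3018 when control replicate 1 was left out and 322 when miR-125b replicate 2 was. The median over the tested members ran from -0.43 to 0.0013 with libraries left out, and was -0.15 with the GC correction. Bad ran from -0.73 to 0.012. Bbc3, Bcl2l11, Bid, Bnip3 and Bnip3l kept their sign in all 14 alternatives each. For genes whose groups do not overlap this is no sign of stability. Bid, whose groups overlap, came as near to 0 as -0.0097. Among the fits with all 4 libraries, the smallest limma adjusted p of any member was 0.284 (Bbc3 with the replicate block). The replicate block changed no member's call, with a limma adjusted p of 0.284 for Bbc3 (unadjusted 0.0063) and 0.412 for Bnip3 (unadjusted 0.028). Across all tested genes, the deviations of same-numbered libraries had a correlation of 0.021. A single correlation over genes cannot exclude a pairing that acts on some of them, so whether the libraries are paired was not settled.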
